A study of Homo sapiens with 39 samples.

Results

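The genes described here make, load and switch on MHC class I, the cell surface complex that shows peptides to CD8+ T cells. They are 9 genes taken by symbol from a table of 63187 genes: the heavy chains HLA-B, HLA-C, HLA-E and HLA-F, the light chain B2M, the peptide transporter subunits TAP1 and TAP2, the loading chaperone TAPBP (tapasin) and the transcriptional activator NLRC5. All 9 were found, and all 9 passed the filter on low counts in both experiments. Messenger RNA was sequenced in 39 libraries of C4-2B, a prostate cancer line that derives from LNCaP and grows without androgens, which fall into 13 groups of 3. In the first experiment, a panel of treatments lasting 5 days, cells received DMSO (the vehicle), 5 µM of abiraterone, 20 µM of enzalutamide, 1 µM of olaparib or 10 nM of talazoparib. A further pair of groups received enzalutamide with talazoparib, or abiraterone with olaparib, each drug at its single-agent dose. In the second, a time course, cells received DMSO, 1 µM olaparib or 5 µM olaparib and were collected at day 1 or day 5. Abiraterone blocks androgen synthesis and enzalutamide blocks androgen signalling, and they are called hormonal drugs here. Olaparib and talazoparib inhibit poly(ADP-ribose) polymerase (PARPi). Both the treated and the control groups are cultures of this single line, and no label says whether replicates came from separate cultures, so the p-values measure only the spread between these libraries.

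A class I complex consists of a heavy chain, the small invariant subunit B2M and a short peptide. Peptides cut by the proteasome enter the endoplasmic reticulum through the transporter formed by TAP1 and TAP2, tapasin holds an empty heavy chain next to that transporter, and the loaded complex travels to the surface, where B2M is needed for nearly all heavy chains to be stable. NLRC5 binds class I promoters through partner proteins and raises the transcription of heavy chains, B2M and TAP1, and interferons raise most of these genes through factors such as IRF1. Prostate cancers are known for low class I expression.

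RefSeq sequences of GRCh38.p14 held upstream regions of 7 of the 9 members (8 start sites, since TAP1 has 2), all but HLA-E and NLRC5. The 200 bases before the start site are printed for the heavy chains HLA-B and HLA-C, for B2M, which moved apart from them, and for TAP1 (the upstream start site), TAP2 and TAPBP, which serve the same loading step and moved in different directions. Sequences read 5′ to 3′ along the gene. Capitals mark the core of an interferon-stimulated response element, searched as GAAANNGAA, and the CCAAT box, searched as CCAAT, each on both strands, so that the reverse complement (ATTGG for the CCAAT box) is marked too.
HLA-B, chr6:31357180-31357379, minus strand: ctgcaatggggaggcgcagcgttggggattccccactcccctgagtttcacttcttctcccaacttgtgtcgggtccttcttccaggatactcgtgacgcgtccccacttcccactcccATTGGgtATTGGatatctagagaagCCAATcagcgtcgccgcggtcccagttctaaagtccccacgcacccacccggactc
HLA-C, chr6:31272093-31272292, minus strand: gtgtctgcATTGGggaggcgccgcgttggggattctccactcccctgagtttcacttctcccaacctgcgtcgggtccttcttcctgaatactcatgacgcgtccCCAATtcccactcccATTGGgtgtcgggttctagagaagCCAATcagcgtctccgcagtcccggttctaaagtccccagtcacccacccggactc
B2M, chr15:44711317-44711516, plus strand: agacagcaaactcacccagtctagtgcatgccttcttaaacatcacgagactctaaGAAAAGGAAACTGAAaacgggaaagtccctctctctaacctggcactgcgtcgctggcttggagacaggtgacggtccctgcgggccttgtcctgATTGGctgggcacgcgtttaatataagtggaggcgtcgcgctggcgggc
TAP1, chr6:32853705-32853904, minus strand: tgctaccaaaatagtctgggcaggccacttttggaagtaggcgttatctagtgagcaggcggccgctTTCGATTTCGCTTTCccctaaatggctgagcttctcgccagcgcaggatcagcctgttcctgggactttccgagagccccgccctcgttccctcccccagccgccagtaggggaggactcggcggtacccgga
TAP2, chr6:32838740-32838939, minus strand: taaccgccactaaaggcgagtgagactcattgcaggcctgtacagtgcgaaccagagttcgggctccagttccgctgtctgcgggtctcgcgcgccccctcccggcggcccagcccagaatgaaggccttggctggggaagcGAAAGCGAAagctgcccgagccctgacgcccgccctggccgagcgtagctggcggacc
TAPBP, chr6:33314079-33314278, minus strand: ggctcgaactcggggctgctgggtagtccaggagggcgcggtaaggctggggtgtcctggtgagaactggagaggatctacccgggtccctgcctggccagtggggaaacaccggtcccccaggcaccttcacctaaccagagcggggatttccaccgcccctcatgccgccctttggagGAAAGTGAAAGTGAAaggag
Over the 250 bases before a start site, the GAAANNGAA core was found in HLA-F, B2M, TAP1, TAP2 and TAPBP, 5 of the 7 members in the table, and in 6.9% of 35116 RefSeq promoters. HLA-B and HLA-C lacked these exact letters. Other forms of the element were not searched, so neither gene can be said to lack it. The CCAAT box was found in HLA-B, HLA-C, HLA-F, B2M and TAP1, against 32.0% of all promoters. Partly overlapping copies of the core lay side by side in B2M, TAP1 and TAPBP, while TAP2 held 1. The GAS element searched as TTCNNNGAA was found in 1 member (TAP1, at its downstream start site) and in 6.6% of all promoters, and TGACG, a part of the cAMP response element, in 4 members and in 21.2%. These are matches of letters in a window before the reference start site and do not locate a bound factor.

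Library totals lay between 26932205 and 49833473 counts in the panel and between 34214001 and 44893664 in the time course. The 3 libraries of a group differed by more than sampling noise in every case, with a chi-square per degree of freedom between 2.11 and 5.63, and no pair was identical. Library 3 of the 5 µM olaparib group at day 1 stood apart, with 5.52 and 5.41 against libraries 1 and 2, which differed from each other by 2.20. All 7 luminal prostate markers were present in every group, KLK3 (prostate-specific antigen, an androgen-induced gene) with at least 9872 counts, and KLK3 fell by 1.58 on the log2 scale with abiraterone and by 2.25 with enzalutamide. Among 7 leukocyte markers, CD3E and TYROBP never exceeded 1 count and CD14 never exceeded 6. Their summed level nevertheless differed between groups, from 0.232 to 0.501 CPM (counts scaled by TMM library size) in the DMSO panel libraries to between 1.07 and 1.501 CPM with enzalutamide plus talazoparib, and in the time course from 0.464 to 0.782 CPM with DMSO to between 1.91 and 2.10 CPM with 5 µM olaparib at day 5. PTPRC (the pan-leukocyte antigen CD45) held 0 to 3 counts in DMSO panel libraries and 38 to 47 with enzalutamide plus talazoparib, and LYZ 15 to 20 counts with DMSO at day 5 and 51 to 61 with 5 µM olaparib. The part of these transcripts in the class I results was not tested. Of the fibroblast and endothelial markers, COL1A2, DCN, LUM and PECAM1 never exceeded 4 counts, whereas COL1A1 (362 to 1032 counts), PDGFRB (37 to 109) and VWF (266 to 789) were present in all groups. The summed fibroblast markers stood at 11.9 to 15.9 CPM with DMSO in the panel, 19.7 to 21.3 with abiraterone, 19.5 to 20.4 with enzalutamide and 22.5 to 23.6 with the combinations. With olaparib in the panel they stood at 16.7 to 18.03 CPM. In the time course they stood at 13.6 to 14.4 CPM with DMSO, 16.5 to 16.8 with 1 µM and 16.95 to 19.2 with 5 µM at day 1, and at 13.5 to 14.1, 15.5 to 15.7 and 13.8 to 14.3 at day 5. The summed endothelial markers stood at 13.8 to 16.3 CPM with DMSO in the panel, 20.8 to 21.4 with abiraterone, 11.6 to 12.8 with enzalutamide and 20.2 to 22.7 with abiraterone plus olaparib. In the time course they stood at 10.1 to 11.3 CPM with DMSO and 13.02 to 15.2 with 5 µM at day 1, and at 10.4 to 10.6 and 7.70 to 8.97 at day 5. The summed luminal markers stood at 4205 to 4353 CPM with DMSO in the panel, 3055 to 3139 with abiraterone and 2705 to 2766 with enzalutamide. They stood at 4646 to 4737 CPM with olaparib and 4717 to 4738 with talazoparib. The combinations held 3208 to 3297 CPM (abiraterone plus olaparib) and 2947 to 3026 CPM (enzalutamide plus talazoparib). The part of these markers was not tested either. In bulk RNA, a change in the number of cells of a type and a change in RNA per cell cannot be told apart.

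Compared per length, as RPKM (counts scaled for the library size and for the length of a gene's merged exons), the members of the DMSO panel libraries spanned 3 orders of magnitude. B2M was highest at 62.9 ± 2.50 RPKM (SD, n = 3), followed by HLA-C at 22.7 ± 1.09, HLA-E at 11.8 ± 1.21 and TAPBP at 6.31 ± 0.34. TAP2 at 3.68 ± 0.12 and HLA-B at 3.34 ± 0.24 came next, closer to each other than the sum of their SDs, then TAP1 at 2.13 ± 0.066 and HLA-F at 0.594 ± 0.035. NLRC5 was lowest at 0.0554 ± 0.0073 RPKM, from 22 to 25 counts per library. B2M stayed highest and NLRC5 lowest in all 13 groups. HLA-B had a higher mean than TAP2 in all 6 treated groups of the panel, for example 5.40 ± 0.25 and 3.11 ± 0.040 RPKM with abiraterone and 4.42 ± 0.39 and 3.15 ± 0.11 with olaparib. Merged exons span 4623 bases for HLA-B, 2507 for HLA-C and 10357 for TAP2, so RPKM and the order by it depend on the annotated isoforms. Reads that fit several HLA genes were divided by the quantifier, and the line's own alleles can differ from the reference, so the split among heavy chains is uncertain.

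Against DMSO, the class I genes did not move as 1 block in the panel. With abiraterone, 6 members were higher and 2 lower at an adjusted p under 0.05 (edgeR's quasi-likelihood test over 18625 genes), where 52.9% of all genes were called in either direction, and with enzalutamide 7 were higher and 1 lower (background 53.3%). With olaparib 6 were higher and 1 lower (background 35.6%), and with talazoparib 4 were higher and 1 lower (background 33.8%). Both combinations gave 6 higher and 2 lower, beside backgrounds of 62.2% (abiraterone plus olaparib) and 62.4% (enzalutamide plus talazoparib). Median log2 fold changes of the 9 members were 0.41, 0.51, 0.23, 0.19, 0.34 and 0.45 in that order of treatments, and the median over all genes tested did not exceed 0.02 in any. These comparisons share the same 3 DMSO libraries.

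**Figure D1:**
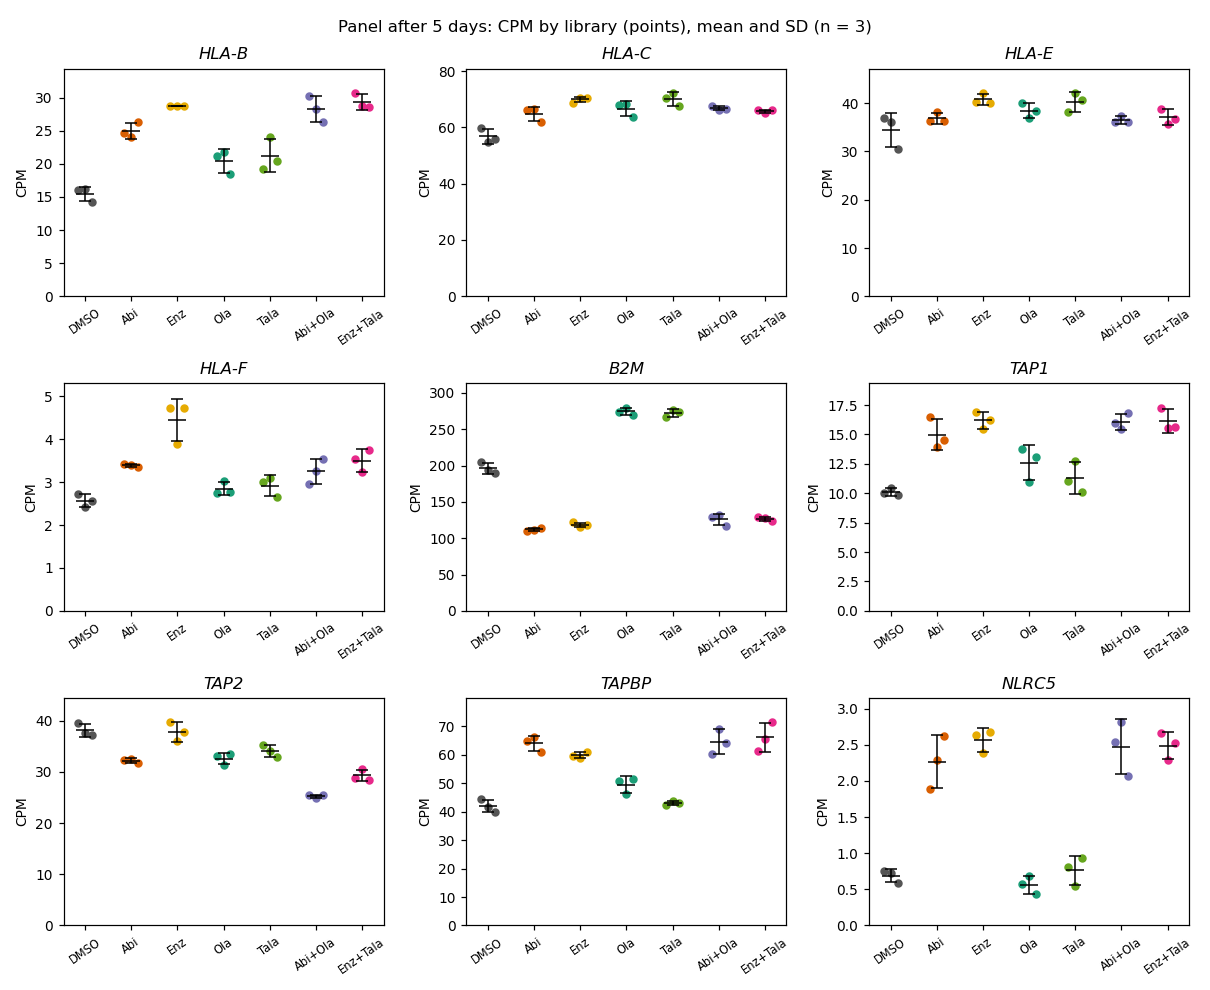
Level of each class I gene in the 21 panel libraries, in CPM on a linear axis from 0, 1 point per library, with the mean and SD of each group (n = 3). HLA-B and TAPBP sit above DMSO with either hormonal drug, NLRC5 rises from under 0.75 to between 1.89 and 2.81 in the 4 groups that received a hormonal drug, and B2M falls in those same groups while it rises with olaparib or talazoparib alone.

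HLA-B (ENSG00000234745.14, chromosome 6 from 31353872 to 31367067, GRCh38) is 1 of the classical heavy chains that present peptides to CD8+ T cells. Its libraries held 16.0, 16.2 and 14.2 CPM with DMSO, 24.7, 24.0 and 26.2 with abiraterone and 28.7, 28.7 and 28.7 with enzalutamide. With the PARPi they held 21.1, 21.8 and 18.4 (olaparib) and 19.2, 24.0 and 20.5 (talazoparib). Every treated library lay above every DMSO library. The lowest library with a hormonal drug alone (abiraterone, 23.985 CPM) and the highest PARPi library (talazoparib, 23.967 CPM) were nearly tied. Hormonal drugs and PARPi were not tested against each other. The log2 fold change was 0.70 ± 0.074 (SE, adjusted p = 1.75e-09) with abiraterone, 0.90 ± 0.072 (SE, adjusted p = 3.59e-12) with enzalutamide, 0.41 ± 0.075 (SE, adjusted p = 5.44e-05) with olaparib and 0.46 ± 0.074 (SE, adjusted p = 8.57e-06) with talazoparib. HLA-B was thus the heavy chain with the widest response, and its rise passed the threshold with all 4 single agents.

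HLA-C (ENSG00000204525.18, chromosome 6 from 31268749 to 31272130), a classical heavy chain that is also read by killer cell receptors, started higher and moved less. DMSO libraries held 59.9, 54.7 and 56.0 CPM, abiraterone libraries 66.2, 66.4 and 61.8, enzalutamide libraries 68.8, 70.5 and 70.5, olaparib libraries 68.1, 68.4 and 63.6 and talazoparib libraries 70.4, 72.2 and 67.6. The groups did not overlap with DMSO. Log2 fold changes were 0.19 ± 0.039 (SE, adjusted p = 9.15e-05) with abiraterone, 0.30 ± 0.039 with enzalutamide, 0.23 ± 0.039 under olaparib and 0.30 ± 0.038 under talazoparib, all past the threshold. HLA-E (ENSG00000204592.9, chromosome 6 from 30489509 to 30494194), whose product presents leader peptides of other heavy chains to the receptor NKG2A, was called with 3 of the 4 single agents. It had 36.9, 36.1 and 30.4 CPM with DMSO and 36.2, 38.2 and 36.3 with abiraterone, which overlapped, and the log2 difference of 0.10 ± 0.055 missed the threshold (adjusted p = 0.116). Without DMSO library A it passed (adjusted p = 0.0308), and with total count scaling the difference was 0.17 and passed too (adjusted p = 0.00916). It rose with enzalutamide by 0.25 ± 0.054 (SE, adjusted p = 1.95e-04), with talazoparib by 0.23 ± 0.054 (SE, adjusted p = 9.06e-04) and with olaparib by 0.16 ± 0.055 (SE, adjusted p = 0.0176). The olaparib call was lost without DMSO library C, olaparib library A or olaparib library C (adjusted p = 0.0730 to 0.296), and with total count scaling (adjusted p = 0.0802). HLA-F (ENSG00000204642.14, chromosome 6 from 29722775 to 29738528), a nonclassical heavy chain, was low at 2.72, 2.42 and 2.56 CPM with DMSO and reached 4.74, 3.89 and 4.74 with enzalutamide. It rose by 0.80 ± 0.13 (SE, adjusted p = 3.47e-06) with enzalutamide and by 0.41 ± 0.13 (SE, adjusted p = 0.0109) with abiraterone, and its differences with olaparib (0.15, 95% interval -0.12 to 0.43) and talazoparib (0.19, interval -0.085 to 0.46) missed the threshold. HLA-F shares exon bases on the opposite strand with HLA-F-AS1, which had 33 to 113 counts, and although the libraries were strand-specific, whether the counting used strand is not given in the sources used here.

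B2M (ENSG00000166710.23, chromosome 15 from 44711358 to 44718851) encodes the light chain that every heavy chain pairs with, and it was the member called in opposite directions against DMSO by the hormonal drugs and the PARPi. Its libraries held 205, 194 and 189.5 CPM with DMSO. They fell to 111, 111 and 115 with abiraterone and 122, 116 and 118 with enzalutamide. They rose to 274, 279.8 and 270.2 with olaparib and 266, 277 and 274 with talazoparib. The 3 sets did not overlap, with all libraries of the hormonal drugs below and all PARPi libraries above DMSO. B2M fell by 0.81 on the log2 scale with abiraterone (SE 0.035, adjusted p = 1.96e-20) and by 0.73 with enzalutamide (SE 0.034, adjusted p = 2.67e-19), to 57.1% ± 1.09 and 60.4% ± 1.54 of the DMSO mean. It rose by 0.49 ± 0.033 (SE, adjusted p = 6.10e-14) with olaparib and by 0.47 ± 0.033 (SE, adjusted p = 1.78e-13) with talazoparib, to 140.0% ± 2.47 and 139% ± 2.77 of the DMSO mean. With a hormonal drug, B2M thus moved against HLA-B, HLA-C and HLA-F, its pairing partners.

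**Figure D2:**
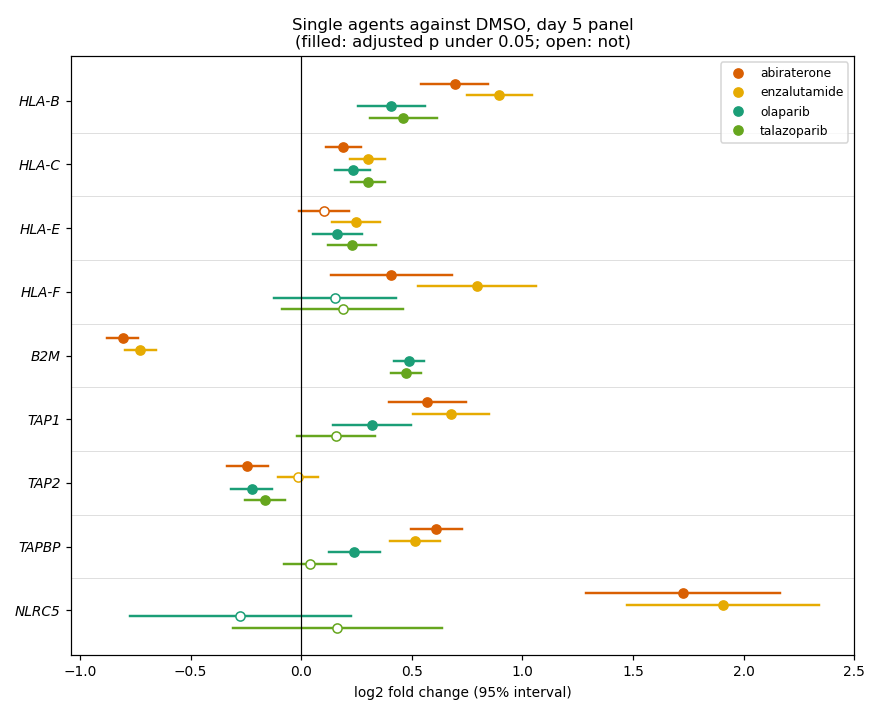
Log2 fold change against DMSO of each class I gene (rows) for the 4 single agents of the panel, with 95% intervals not adjusted for the number of genes, filled where the adjusted p was under 0.05 and open where it was not. B2M lies left of 0 with abiraterone (-0.81) and enzalutamide (-0.73) and right of 0 with olaparib (0.49) and talazoparib (0.47), and NLRC5 lies far right with the hormonal drugs only among the filled points.

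TAP1 (ENSG00000168394.13, chromosome 6 from 32845209 to 32853816) and TAP2 (ENSG00000204267.19, chromosome 6 from 32821833 to 32838739) are neighbours in the MHC region and form 1 transporter, yet they moved differently. TAP1 had 10.1, 10.4 and 9.83 CPM with DMSO, 16.5, 13.9 and 14.6 with abiraterone, 16.9, 15.5 and 16.2 with enzalutamide, 13.8, 10.96 and 13.1 with olaparib and 11.1, 12.8 and 10.1 with talazoparib. All libraries with a hormonal drug or olaparib alone lay above DMSO, and talazoparib overlapped with it. The rise was 0.57 ± 0.086 (SE, adjusted p = 7.50e-07) with abiraterone, 0.68 ± 0.085 (SE, adjusted p = 1.79e-08) with enzalutamide and 0.32 ± 0.087 (SE, adjusted p = 0.00358) with olaparib, the last lost without olaparib library A (adjusted p = 0.0621). Talazoparib gave 0.16 (interval -0.018 to 0.34, adjusted p = 0.168). TAP2 had 39.6, 37.6 and 37.3 CPM with DMSO, 32.4, 32.5 and 31.7 with abiraterone, 33.1, 31.3 and 33.5 with olaparib and 35.2, 34.1 and 32.9 with talazoparib, all of them below DMSO. Its log2 fold change was -0.24 ± 0.046 (SE, adjusted p = 3.21e-05) with abiraterone, -0.22 ± 0.046 (SE, adjusted p = 1.63e-04) with olaparib and -0.16 ± 0.045 (SE, adjusted p = 0.00443) with talazoparib. Enzalutamide libraries, at 39.7, 35.9 and 37.8 CPM, overlapped with DMSO, and their difference of -0.014 (interval -0.11 to 0.078) missed the threshold. TAP2 shares exon bases on the same strand with an unnamed gene that held 0 to 48 counts.

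TAPBP (ENSG00000231925.14, chromosome 6 from 33299694 to 33314284), which encodes tapasin, had 44.4, 41.6 and 40.0 CPM with DMSO, 65.0, 66.1 and 60.9 with abiraterone and 59.5, 58.9 and 61.1 with enzalutamide. It rose by 0.61 ± 0.055 (SE, adjusted p = 2.97e-10) and 0.51 ± 0.055 (SE, adjusted p = 7.13e-09). With olaparib it had 50.7, 46.1 and 51.6 CPM and rose by 0.24 ± 0.056 (SE, adjusted p = 0.00122), and with talazoparib it had 42.2, 43.8 and 43.1 CPM, within the DMSO range, with a difference of 0.040 (interval -0.075 to 0.16). TAPBP shares exon bases on the opposite strand with an unnamed gene of 151 to 314 counts. NLRC5 (ENSG00000140853.17, chromosome 16 from 56989485 to 57083531), the class I transactivator, was scarce, with 22, 25 and 23 counts in the DMSO libraries. It had 65, 72 and 85 counts with abiraterone and 79, 101 and 112 with enzalutamide, above every DMSO library. The log2 fold change was 1.73 ± 0.22 (SE, adjusted p = 1.97e-08) with abiraterone and 1.91 ± 0.21 (SE, adjusted p = 1.73e-09) with enzalutamide, the widest of the 9 genes. Olaparib libraries held 22, 24 and 15 counts and talazoparib libraries 28, 22 and 44, both overlapping with DMSO, and differences of -0.27 (interval -0.77 to 0.23) and 0.16 (interval -0.31 to 0.64) missed the threshold.

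The combinations kept the directions of the hormonal drugs for HLA-B, B2M, TAP1, TAPBP and NLRC5. With abiraterone plus olaparib, HLA-B reached 30.2, 28.2 and 26.3 CPM and with enzalutamide plus talazoparib 30.7, 28.7 and 28.5, and the rise against DMSO was 0.88 ± 0.073 (SE, adjusted p = 5.46e-12) and 0.93 ± 0.072 (SE, adjusted p = 7.99e-13). B2M had 129, 132 and 117 CPM and 129, 127 and 123 CPM, all below DMSO, with log2 fold changes of -0.64 ± 0.035 (SE, adjusted p = 8.19e-18) and -0.63 ± 0.034 (SE, adjusted p = 8.09e-18). B2M therefore remained under its DMSO level in both combinations although each contained a PARPi that raised it alone. TAP2 reached its lowest panel level, 25.4, 24.8 and 25.4 CPM, with abiraterone plus olaparib, a log2 fold change of -0.60 ± 0.048 (SE, adjusted p = 3.23e-13), and had 28.8, 30.6 and 28.5 CPM with enzalutamide plus talazoparib, a change of -0.38 ± 0.046 (SE, adjusted p = 5.92e-09). TAP1 rose by 0.67 ± 0.086 and 0.68 ± 0.084, TAPBP by 0.63 ± 0.055 and 0.65 ± 0.054, and NLRC5 by 1.86 ± 0.22 and 1.86 ± 0.21 in the same order. HLA-C rose by 0.23 ± 0.039 and 0.21 ± 0.038, and HLA-E had differences of 0.089 (adjusted p = 0.165) and 0.11 (adjusted p = 0.0713), which missed the threshold. The HLA-E difference passed without DMSO library A in both (adjusted p = 0.0460 with abiraterone plus olaparib, 0.0173 in the other combination) and with total count scaling (adjusted p = 0.0406 and 0.0190). For enzalutamide plus talazoparib it also passed without DMSO library B (adjusted p = 0.0360) or combination library B (adjusted p = 0.0423). HLA-F rose by 0.45 ± 0.13 (SE, adjusted p = 0.00349) with enzalutamide plus talazoparib and by 0.34 ± 0.14 (SE, adjusted p = 0.0270) with abiraterone plus olaparib, a call lost without DMSO library B or C or combination library B or C (adjusted p = 0.0553 to 0.107) and without the filter on low counts (adjusted p = 0.0986).

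Whether the drugs of a combination added up was tested as an interaction on the log2 scale, where 0 means that the combination equals the sum of its drugs. For abiraterone plus olaparib, 0 members were above and 2 below that sum (12.8% of all genes departed from it). These were B2M at -0.32 ± 0.049 (SE, adjusted p = 2.26e-05) and HLA-C at -0.19 ± 0.055 (SE, adjusted p = 0.0180). For enzalutamide plus talazoparib, 0 were above and 5 below (background 12.6%). These were HLA-B at -0.43 ± 0.099 (SE, adjusted p = 0.00353), HLA-C at -0.39 ± 0.054 (SE, adjusted p = 3.19e-06), HLA-E at -0.37 ± 0.075 (SE, adjusted p = 9.14e-04), B2M at -0.38 ± 0.048 (SE, adjusted p = 1.01e-06) and TAP2 at -0.20 ± 0.064 (SE, adjusted p = 0.0327). The medians of the 9 departures were -0.21 and -0.37, against -0.013 and -0.026 over all genes.

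In level terms, B2M reached 80.1% of the CPM expected from the sum of log2 effects with abiraterone plus olaparib, against 76.9% in the other combination. HLA-B reached 85.6% and 74.6%, and HLA-C 87.9% and 76.3%. Of the heavy chains, 1 was called higher in a combination than with its hormonal drug alone, HLA-B with abiraterone plus olaparib. TAP1 (-0.22 and -0.16), NLRC5 (0.41 and -0.21) and HLA-F (-0.21 and -0.53, adjusted p = 0.0523 for the latter) missed the threshold in both, as did TAPBP (-0.23, adjusted p = 0.0558, and 0.10). The number of members below the sum ranged from 1 to 4 for abiraterone plus olaparib and from 4 to 6 for enzalutamide plus talazoparib when single libraries were left out. HLA-C with abiraterone plus olaparib lost its call without DMSO library B, abiraterone library A, or olaparib library A or B (adjusted p = 0.0533 to 0.0701), and TAP2 with enzalutamide plus talazoparib lost it without any 1 of 10 of the 12 libraries, DMSO library A and enzalutamide library B excepted (adjusted p = 0.0501 to 0.177), and with total count scaling (adjusted p = 0.0806). Without DMSO library A, 4 members lay below the sum for abiraterone plus olaparib, with HLA-E and TAPBP added. TAPBP also passed there without abiraterone library C, olaparib library B or combination library B, and with RLE scaling, without the filter on low counts, with all 39 libraries in 1 fit and under DESeq2 (adjusted p = 0.0039 to 0.0478), and HLA-F passed for enzalutamide plus talazoparib without DMSO library A or enzalutamide library B (adjusted p = 0.0315 to 0.0457).

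**Figure D3:**
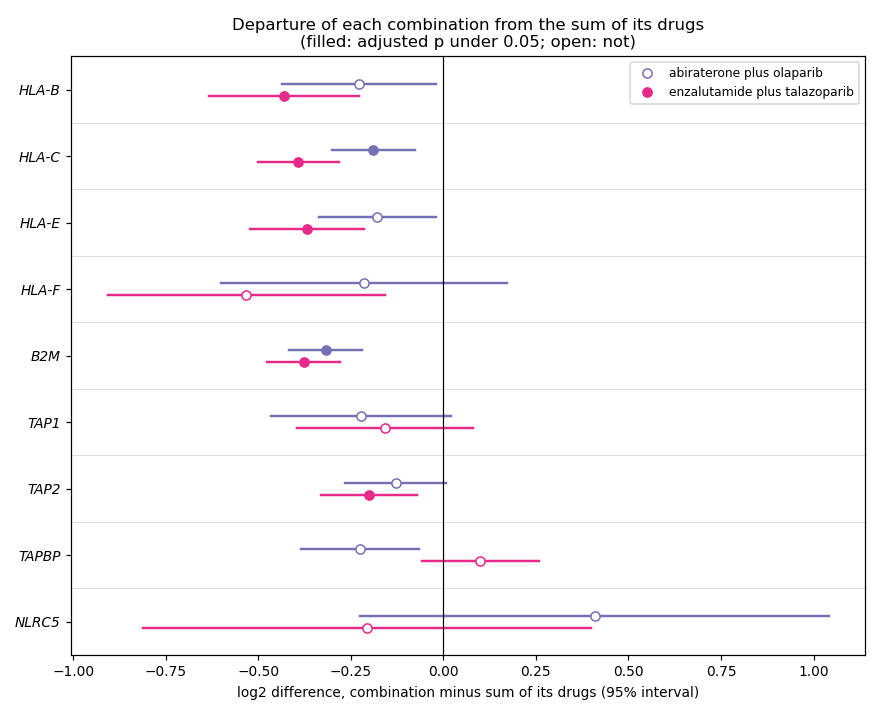
Departure of each combination from the sum of its drugs on the log2 scale, (horizontal axis), with 95% intervals not adjusted for the number of genes, filled where the adjusted p was under 0.05. The filled points, HLA-B, HLA-C, HLA-E, B2M and TAP2 with enzalutamide plus talazoparib and HLA-C and B2M with abiraterone plus olaparib, lie left of 0, while NLRC5 has wide intervals that include 0.

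Each combination was also compared with its hormonal drug alone. Against abiraterone alone, olaparib raised 2 and lowered 1 (background 29.2%). B2M was higher by 0.17 ± 0.035 (SE, adjusted p = 3.51e-04), TAP2 was lower at -0.35 ± 0.049 (SE, adjusted p = 5.75e-07), and HLA-B was higher by 0.18 ± 0.070 at an adjusted p of 0.04997, a call lost without any abiraterone library or without combination library A or B (adjusted p = 0.0512 to 0.267). Against enzalutamide alone, talazoparib raised 2 and lowered 3 (background 34.4%). TAP2 was lower at -0.36 ± 0.045 (SE, adjusted p = 6.16e-08), and it was the member that fell in both additions whichever library was left out. HLA-F (-0.34 ± 0.13) and HLA-E (-0.14 ± 0.053) were lower and TAPBP (0.14 ± 0.052) and B2M (0.10 ± 0.035) higher, with adjusted p between 0.0285 and 0.0418. With any 1 of the 6 libraries left out, 1 to 3 members remained past the threshold in this comparison, and each of those 4 calls was lost without at least 3 of the libraries (adjusted p = 0.0521 to 0.245). TAPBP also lost its call with the replicate number as a block (adjusted p = 0.0529), and each of the other 3 did under another scaling or without the filter on low counts (adjusted p = 0.0531 to 0.146).

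Drugs of the same class were also compared directly, as 2 pairs. Enzalutamide gave higher levels than abiraterone for 4 members and lower for 0 (background 19.8%), with TAP2 at 0.23 ± 0.046 (SE, adjusted p = 3.16e-04), HLA-F at 0.39 ± 0.13 (SE, adjusted p = 0.0281), HLA-B at 0.20 ± 0.069 (SE, adjusted p = 0.0356) and HLA-C at 0.11 ± 0.038 (SE, adjusted p = 0.0363). TAP2 was the call that withstood leaving out each library, and 1 to 2 members passed in those fits. With total count scaling 2 members passed. For B2M the difference was 0.079 (interval 0.0068 to 0.15) and for NLRC5 0.18 (interval -0.21 to 0.57). Talazoparib differed from olaparib in 1 member (background 8.36%), TAPBP, which was lower at -0.20 ± 0.055 (SE, adjusted p = 0.0228), a call lost without any talazoparib library or without olaparib library A or C (adjusted p = 0.0516 to 0.117). For B2M the PARPi differed by -0.012 (interval -0.078 to 0.055). Abiraterone and enzalutamide differ in target, and doses differed within each class, as set out above.

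In the time course, most class I transcripts rose with olaparib, TAP1 already at day 1 and B2M mainly at day 5. At day 1, 1 µM olaparib raised 6 members and lowered 0 (background 15.8% of 18502 genes), and 5 µM raised 6 and lowered 1 (background 45.0%). At day 5, 1 µM raised 7 and lowered 1 (background 46.3%), and 5 µM raised 8 and lowered 1, which makes all 9 (background 68.2%). Going from 1 to 5 µM at day 5 raised 7 and lowered 1 (background 53.6%). The median log2 fold change of the members was 0.14 and 0.27 at day 1 and 0.35 and 0.73 at day 5.

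**Figure D4:**
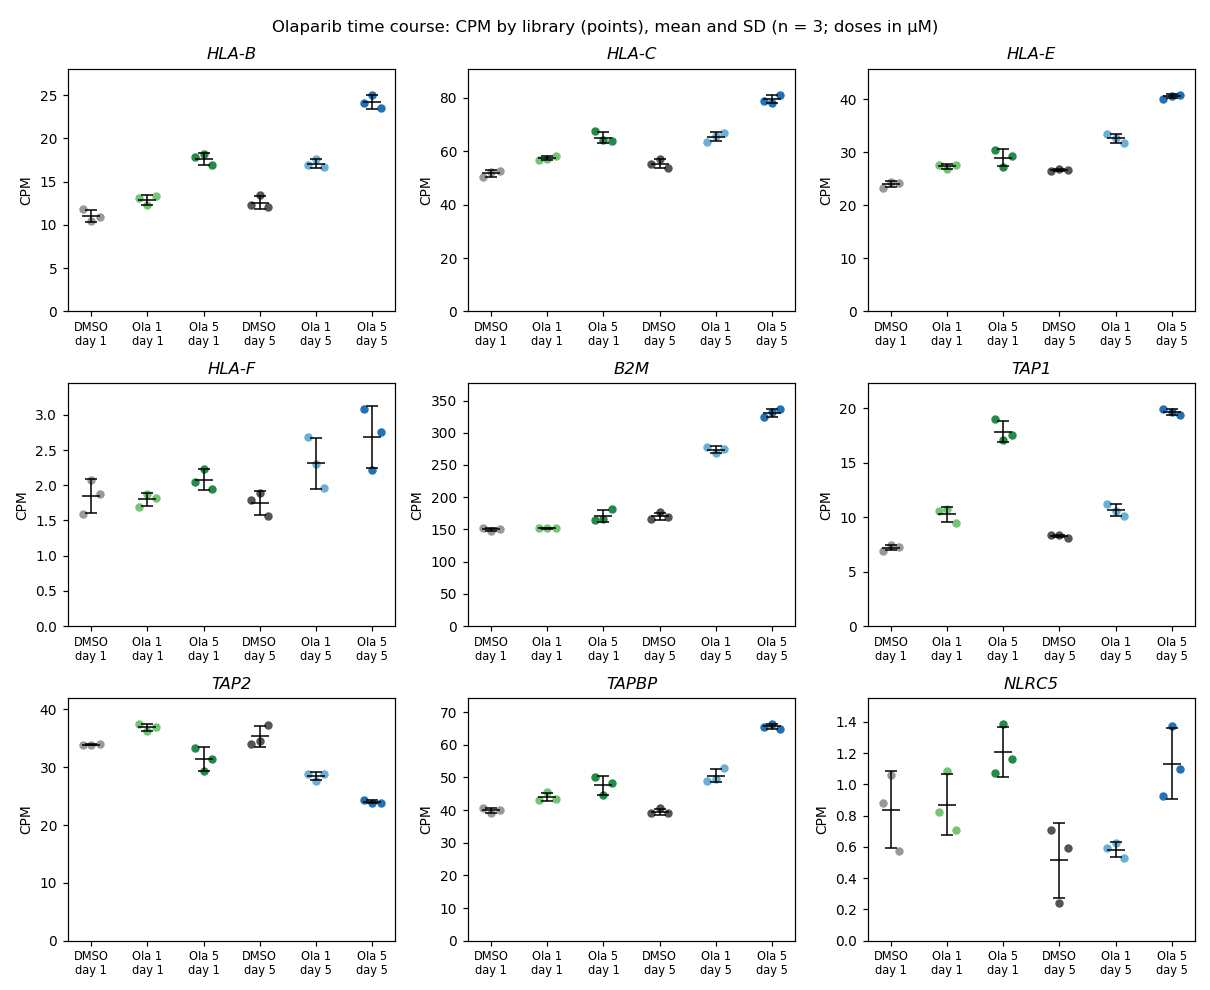
Level of each class I gene in the 18 time course libraries, in CPM on a linear axis from 0, 1 point per library, with the mean and SD (n = 3). TAP1 is already raised at day 1, B2M is near DMSO at day 1 with 1 µM, above it with 5 µM, and further above it at day 5 with both doses, and TAP2 falls below DMSO at day 5.

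TAP1 had the widest change of the 9 genes at day 1 with either dose. At day 1 it had 6.93, 7.43 and 7.25 CPM with DMSO, 10.6, 10.8 and 9.48 with 1 µM and 19.0, 17.1 and 17.6 with 5 µM. The groups stood apart at both doses, with a log2 fold change of 0.51 ± 0.066 (SE, adjusted p = 4.53e-07) and 1.31 ± 0.062 (SE, adjusted p = 1.62e-19). At day 5 it had 8.33, 8.34 and 8.13 CPM with DMSO, 11.2, 10.5 and 10.2 with 1 µM and 19.9, 19.6 and 19.4 with 5 µM, a rise of 0.37 ± 0.065 (SE, adjusted p = 1.19e-05) and 1.25 ± 0.060 (SE, adjusted p = 3.22e-20). The difference in effect between days missed the threshold, at -0.15 (interval -0.33 to 0.042) at 1 µM and -0.061 (interval -0.24 to 0.12) at 5 µM.

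The B2M effect differed between days. Day 1 libraries held 152, 148 and 151 CPM with DMSO, 151, 153 and 152 with 1 µM and 164, 166 and 181 with 5 µM. At day 5 they held 166, 176 and 169 with DMSO, 278, 268 and 275 with 1 µM and 324, 332 and 337 with 5 µM. The highest of these day 1 values, 181, belongs to the library that stood apart. The day 1 difference at 1 µM was 0.017 (interval -0.041 to 0.075) and at 5 µM 0.18 ± 0.029 (SE, adjusted p = 2.18e-06), or 0.14 without that library (adjusted p = 7.26e-05), while the day 5 rise was 0.68 ± 0.028 (SE, adjusted p = 1.45e-20) and 0.96 ± 0.028 (SE, adjusted p = 6.48e-26). Tested directly, the effect was larger at day 5 by 0.67 ± 0.040 (SE, adjusted p = 2.75e-15) at 1 µM and 0.78 ± 0.040 (SE, adjusted p = 3.39e-18) at 5 µM, the latter 0.82 without that library. Of the other members, TAP2 lost its 5 µM call at day 1 without it (adjusted p = 0.0602), and no other call in the 5 µM comparisons at day 1 or between days changed.

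TAP2 fell at day 5. It had 33.8, 33.9 and 34.0 CPM with DMSO at day 1, 37.5, 36.3 and 37.0 with 1 µM and 33.4, 29.4 and 31.5 with 5 µM. At day 5 it had 34.0, 34.6 and 37.3 with DMSO, 28.9, 27.7 and 28.8 with 1 µM and 24.4, 23.9 and 23.8 with 5 µM. The day 5 log2 fold changes were -0.31 ± 0.042 (SE, adjusted p = 7.62e-08) and -0.55 ± 0.043 (SE, adjusted p = 3.82e-14), and the day 5 effect minus the day 1 effect was -0.43 ± 0.058 (SE, adjusted p = 1.65e-07) and -0.45 ± 0.060 (SE, adjusted p = 5.17e-08). The day 1 values of 0.12 ± 0.040 at 1 µM and -0.11 ± 0.041 at 5 µM (adjusted p = 0.0297 and 0.0307) each lost their call without any DMSO day 1 library, without 1 µM libraries 1 or 3, or without 5 µM libraries 2 or 3 (adjusted p = 0.0638 to 0.105 at 1 µM and 0.0515 to 0.262 at 5 µM).

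HLA-B had 11.8, 10.4 and 10.9 CPM with DMSO at day 1, 13.1, 12.3 and 13.4 with 1 µM and 17.8, 18.2 and 16.9 with 5 µM. At day 5 it had 12.3, 13.4 and 12.02, 16.9, 17.7 and 16.7 and 24.1, 25.1 and 23.5 in the same order. Dose and day both raised it without overlap with DMSO. The log2 fold changes were 0.23 ± 0.059 (SE, adjusted p = 0.00624) and 0.68 ± 0.057 (SE, adjusted p = 2.18e-12) at day 1 and 0.44 ± 0.056 (SE, adjusted p = 2.57e-08) and 0.95 ± 0.054 (SE, adjusted p = 5.68e-18) at day 5, the first lost without DMSO day 1 library 2 (adjusted p = 0.0550). HLA-C rose by 0.15 ± 0.032 and 0.33 ± 0.031 at day 1 and 0.24 ± 0.031 and 0.52 ± 0.031 at day 5. HLA-E rose by 0.19 ± 0.041 and 0.27 ± 0.041, then 0.29 ± 0.039 and 0.60 ± 0.038, and at 5 µM and day 5 it had 40.1, 40.6 and 40.8 CPM against 26.4, 26.9 and 26.7 with DMSO. All of these HLA-C and HLA-E rises passed the threshold. HLA-F was not called at day 1 (-0.041 and 0.16) and rose at day 5 by 0.62 ± 0.15 (SE, adjusted p = 6.25e-04) at 5 µM and 0.40 ± 0.16 (SE, adjusted p = 0.0328) at 1 µM, the latter lost without DMSO day 5 library 1 or 3 or 1 µM library 1 or 2 (adjusted p = 0.0623 to 0.204) and under DESeq2 (adjusted p = 0.0732).

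TAPBP, the tapasin gene, had 38.96, 40.6 and 39.1 CPM with DMSO at day 5 and 65.4, 66.4 and 65.0 with 5 µM olaparib. It rose by 0.14 ± 0.037 and 0.26 ± 0.037 at day 1 and by 0.35 ± 0.037 and 0.73 ± 0.036 (SE, adjusted p = 6.64e-20) at day 5, all past the threshold, the first lost without 1 µM library 2 (adjusted p = 0.0602). NLRC5 passed in 1 of the 4 comparisons, 5 µM at day 5, where counts were 33, 49 and 39 against 32, 9 and 23 with DMSO, a rise of 1.11 ± 0.27 (SE, adjusted p = 5.21e-04). It stood at 42, 49 and 43 counts with 5 µM at day 1 against 31, 45 and 22 with DMSO (0.52, interval -0.0045 to 1.04). That difference passed without DMSO day 1 library 2 (adjusted p = 0.0459). TAP1, HLA-B, HLA-C and HLA-E thus rose in conditions where the NLRC5 difference missed the threshold, and the wide interval of NLRC5 at these counts does not show that it was unchanged.

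The olaparib effect differed between days in 4 members at 1 µM, 3 larger in the positive direction at day 5 and 1 lower (background 29.8%), and in 6 at 5 µM, 5 and 1 (background 54.9%). Besides B2M and TAP2, these were HLA-B (0.21 ± 0.082 at 1 µM and 0.27 ± 0.079 at 5 µM), TAPBP (0.21 ± 0.053 and 0.48 ± 0.052), and at 5 µM HLA-C (0.19 ± 0.044) and HLA-E (0.33 ± 0.056). The HLA-B call at 1 µM (adjusted p = 0.0441) was lost without 8 of the 12 libraries concerned, library 1 or 3 of either DMSO group and library 1 or 2 of either 1 µM group (adjusted p = 0.0575 to 0.150), and under DESeq2 (adjusted p = 0.0718). HLA-F passed at 5 µM without DMSO day 1 library 1 or 5 µM day 5 library 2 (adjusted p = 0.0304 to 0.0471). Scaling by total counts shifts the median of all genes by -0.13 in the 5 µM comparison of days, and HLA-B and HLA-C then differed by 0.14 and 0.059, no longer past the threshold.

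In DMSO alone, 5 members were higher at day 5 than at day 1 and 0 lower (background 24.5%): B2M by 0.18 ± 0.028 (SE, adjusted p = 9.23e-06), HLA-E by 0.15 ± 0.041 (SE, adjusted p = 0.00578), HLA-B by 0.19 ± 0.060, TAP1 by 0.20 ± 0.068 and HLA-C by 0.10 ± 0.032. Each was smaller than the 5 µM effect of the same gene at day 5. The count fell to 3 without DMSO day 1 library 1 and to 2 without DMSO day 5 library 2, and TAP1 lost its call without 5 of the 6 libraries, DMSO day 1 library 2 excepted (adjusted p = 0.0516 to 0.111), and under DESeq2 (adjusted p = 0.0768). HLA-C lost it without those same 2 libraries and HLA-B without library 2 of either day (adjusted p = 0.113 to 0.152), whereas the NLRC5 difference of -0.68 passed without DMSO day 1 library 3 or DMSO day 5 library 1 (adjusted p = 0.0267 to 0.0279).

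Olaparib at 1 µM for 5 days was run in both experiments, and its effect was compared in 1 fit of all 39 libraries. It differed in 1 member (background 1.94%), B2M, whose rise was smaller in the panel by 0.21 on the log2 scale (SE 0.046, adjusted p = 0.00558). The other members differed by -0.44 (NLRC5) to 0.072 (TAP2) without passing. Without DMSO panel library C, HLA-E passed as well (adjusted p = 0.0271), which makes 2. The DMSO groups of the experiments also stood at different levels, B2M at 62.9 ± 2.50 and 54.6 ± 1.67 RPKM and HLA-E at 11.8 ± 1.21 and 9.12 ± 0.084, from separately scaled tables that were not tested against each other.

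Ratios within a library, which do not depend on scaling between libraries, put the split responses side by side. They were chosen after the values had been seen and carry no test. The count of B2M divided by the summed counts of HLA-B, HLA-C, HLA-E and HLA-F was 1.80 ± 0.036 (SD, n = 3) with DMSO in the panel. It was 0.862 ± 0.030 with abiraterone, 0.823 ± 0.028 with enzalutamide, 2.14 ± 0.060 under olaparib and 2.03 ± 0.064 under talazoparib. The combinations, at 0.933 ± 0.048 and 0.933 ± 0.024, stood near the hormonal drugs. In the time course it went from 1.70 ± 0.050 with DMSO to 1.5 ± 0.11 with 5 µM olaparib at day 1, and from 1.77 ± 0.031 to 2.25 ± 0.030 at day 5.

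The count of TAP1 divided by that of TAP2 was 0.265 ± 0.012 with DMSO in the panel and higher in all 6 treated groups, from 0.332 ± 0.037 with talazoparib to 0.637 ± 0.021 with abiraterone plus olaparib. Abiraterone gave 0.465 ± 0.040 and olaparib 0.386 ± 0.034. With 5 µM olaparib it rose from 0.213 ± 0.0069 to 0.570 ± 0.012 at day 1 and from 0.235 ± 0.015 to 0.819 ± 0.0040 at day 5. These are ratios of counts, not of molecules per length.

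**Figure D5:**
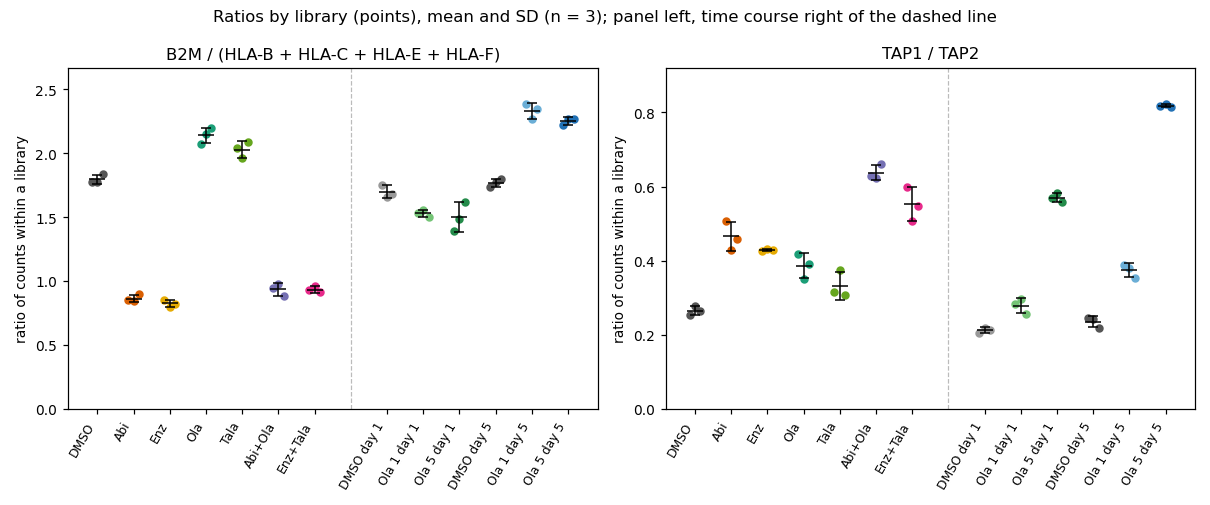
Within-library ratios in all 13 groups, 1 point per library with the mean and SD (n = 3), panel on the left of the dashed line and time course on the right, linear axes from 0. The ratio of B2M to heavy chain counts is under 1 in the 4 groups with a hormonal drug and has means above 2 with a PARPi alone for 5 days, and the ratio of TAP1 to TAP2 counts is lowest in the DMSO groups.

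Across the 21 panel libraries, log2 CPM of TAP1 and HLA-B had a Pearson correlation of 0.90, TAP1 and TAPBP of 0.90, and B2M and NLRC5 of -0.92. HLA-C and B2M had -0.025. The points share treatments and libraries, so these values describe the panel's 7 conditions. The genes outside the MHC region with the most similar pattern to the mean of the standardized members included PJA1 (0.93), HADH (0.92), MAPKAPK3 (0.91) and GNG4 (0.91), over the same 21 libraries.

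Other genes of the pathway were counted in lists, to be read against the share of all genes called in either direction, 52.9% with abiraterone, 53.3% with enzalutamide, 35.6% under olaparib and 33.8% under talazoparib. Of 5 immunoproteasome and PA28 genes, which shape peptides for class I, 3 rose and 0 fell with abiraterone, 4 and 0 with enzalutamide and 2 and 0 with each PARPi, counts that with abiraterone and the PARPi lie near those shares. The PA28 subunits PSME1 (0.81 ± 0.058 with abiraterone, 0.91 ± 0.057 with enzalutamide, 0.31 ± 0.059 with olaparib) and PSME2 (0.61 ± 0.053, 0.55 ± 0.052 and 0.47 ± 0.053) rose in all 4. The immunoproteasome subunit PSMB8 held 3 to 8 counts with DMSO and 18 to 29 with enzalutamide, a rise of 1.91 ± 0.40. All 3 standard catalytic subunits fell with either hormonal drug, PSMB7 by 0.37 with abiraterone. Their list medians were 0.81 and -0.28 with abiraterone, against 0.00 over all genes.

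Of 8 genes listed as loading and trimming partners, 3 rose and 4 fell with abiraterone, and 4 rose and 0 fell with olaparib. TAPBPL, which encodes the tapasin relative TAPBPR, rose with all 4 single agents (0.79 ± 0.14 with abiraterone, 0.99 ± 0.14 with enzalutamide, 0.70 ± 0.14 with olaparib, 0.60 ± 0.14 with talazoparib) and with the combinations, by 1.16 ± 0.14 and 1.33 ± 0.13. ERAP1, a peptidase that trims peptides for class I, rose with abiraterone (0.67 ± 0.054) and enzalutamide (0.82 ± 0.053), and stood at -0.13 ± 0.057 with olaparib, past no threshold. CANX, PDIA3 and HSPA5, of the same list, fell with both hormonal drugs, CANX by 0.41 with abiraterone.

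Among 15 transcription factors that act on class I promoters, 6 rose and 3 fell with abiraterone, 6 and 1 with enzalutamide, 4 and 5 with olaparib and 4 and 4 with talazoparib, and the counts with abiraterone and enzalutamide lie near the share over all genes. IRF1, an interferon-response activator, rose by 1.43 ± 0.16 (SE, adjusted p = 1.45e-09) with abiraterone, 1.61 ± 0.16 (SE, adjusted p = 5.57e-11) with enzalutamide, 0.57 ± 0.17 (SE, adjusted p = 0.00635) with olaparib and 0.48 ± 0.16 (SE, adjusted p = 0.0224) with talazoparib, and by 1.90 ± 0.16 and 1.95 ± 0.15 with the combinations. With 5 µM olaparib it rose by 0.92 ± 0.13 at day 1 and 1.59 ± 0.13 at day 5. NFKB1 rose with abiraterone (1.34 ± 0.044) and enzalutamide (0.94 ± 0.044). RFX5, a DNA-binding partner of NLRC5, rose with olaparib (0.37 ± 0.029) and talazoparib (0.42 ± 0.029) and moved by 0.079 and -0.090 with the hormonal drugs. Of 7 interferon receptor and kinase genes, 3 rose and 2 fell with abiraterone, 4 and 2 with enzalutamide, 1 and 0 with olaparib and 2 and 1 with talazoparib, and with 5 µM olaparib at day 5 all 7 rose, where 68.2% of all genes were called.

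Relatives of class I split as well. Of 13 class I-like and natural killer ligand genes, 10 were tested in the panel, and 4 rose and 3 fell with abiraterone, 5 and 1 with enzalutamide, 3 and 3 with olaparib and 3 and 2 with talazoparib. MR1, which presents vitamin metabolites to MAIT cells and pairs with B2M, rose with all 4, by 1.02 ± 0.13 with abiraterone and 1.18 ± 0.13 with olaparib, and by 2.02 ± 0.13 with both. AZGP1, a secreted class I-like protein of the prostate, went the way of B2M, at -1.64 ± 0.035 with abiraterone, -1.91 ± 0.035 with enzalutamide, 0.75 ± 0.032 under olaparib and 0.68 ± 0.032 under talazoparib. ULBP1, a ligand of the receptor NKG2D, was at -0.66 ± 0.091 with abiraterone, 0.21 ± 0.086 with enzalutamide and -0.85 ± 0.091 with olaparib. Of 10 class II pathway genes, 5 passed the filter on low counts, CIITA held at most 15 counts, HLA-DRA 9 and CD74 4, and 1 rose and 2 fell with abiraterone, 2 and 0 with enzalutamide and 1 and 0 with each PARPi. Of 6 genes for checkpoint ligands, 5 were tested, and 2 rose and 1 fell with abiraterone and 4 and 1 with enzalutamide, CD47 by 0.49 ± 0.048 and CD274 (PD-L1) by 0.75 ± 0.29 with the latter.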

How the data were processed

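Messenger RNA of C4-2B cells was sequenced in 39 libraries (13 groups of 3). The authors trimmed reads with Trim Galore, aligned them to GRCh38 with STAR and quantified genes with Salmon on a GENCODE annotation. The values deposited by the authors are estimated counts per gene. They are not normalized and are stored as integers, and how they were rounded is not given in the sources used here. Salmon divides reads that fit several similar genes, which touches the HLA genes most. Totals lay between 26932205 and 49833473 counts.

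Symbols, coordinates and exon lengths came from an earlier GENCODE release of the same build, with 62666 of 63187 identifiers paired with a symbol. The 9 genes and the pathway lists were chosen with earlier results of these data known. All libraries of an experiment (all 39 for the comparison between experiments) entered 1 fit without covariates in edgeR 4.0.16 under R 4.3.3, with TMM scaling, filterByExpr by group, robust dispersions and quasi-likelihood tests, adjusted by Benjamini-Hochberg over all genes tested (18625 for the treatment panel and 18502 for the time course). A gene was called at an adjusted p under 0.05. Intervals are 95% and come from the same fit. Log2 CPM for correlations used a prior count of 2. Genes similar to the members had a mean of at least 100 counts. The text names the 9 members, the most similar genes (of the first 5) outside the MHC region and, from each list, up to 3 genes with the largest absolute log2 fold change past the threshold and genes whose role is needed to read a member. CIITA, HLA-DRA and CD74 fall outside that rule and were named after their values were seen. Alternatives were RLE and total count scaling, no filter on low counts, DESeq2 1.42.0, other sets of libraries in the fit, a replicate block and leaving out each library. Scripts were tested on simulated counts. A result that rests on a withheld item is left out.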

Additional observations from a re-analysis of the deposited data

Results flagged for a closer look

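The olaparib effect of several members differed between days by the test of the difference itself (edgeR's quasi-likelihood test, adjusted over all genes). At 1 µM, the day 5 effect minus the day 1 effect was 0.21 ± 0.082 on the log2 scale for HLA-B, 0.67 ± 0.040 for B2M, -0.43 ± 0.058 for TAP2 and 0.21 ± 0.053 for TAPBP. At 5 µM it was 0.27 ± 0.079 for HLA-B, 0.19 ± 0.044 for HLA-C, 0.33 ± 0.056 for HLA-E, 0.78 ± 0.040 for B2M, -0.45 ± 0.060 for TAP2 and 0.48 ± 0.052 for TAPBP. The 1 µM effect on TAP2 was 0.12 at day 1, a call lost in 5 of the 6 fits that left out a library of the groups compared, and -0.31 at day 5. The HLA-B call at 1 µM was lost without 8 of 12 libraries, under DESeq2 (adjusted p = 0.0718) and with total count scaling (adjusted p = 0.123), and with that scaling the 5 µM calls of HLA-B and HLA-C were lost too (adjusted p = 0.139 and 0.264).

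The effect of 1 µM olaparib at day 5 also differed between the experiments for B2M, at -0.21 ± 0.046 for the panel minus the time course. B2M rose in all 3 olaparib libraries of both experiments, so the difference is one of size. Groups of 3 were not searched gene by gene for outlying libraries.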

How the results depend on the processing

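Of 118 called member results among 189 (9 members in 21 comparisons), 93 kept their call under every alternative, 20 lost it under an alternative other than leaving out a library, and 23 lost it when a library was left out, some of them in both. Called results changed direction in 0 cases. Of 71 uncalled results, 21 did in at least 1 alternative. Leaving aside the fits without a library, the number of members called moved by over 1.5 times for enzalutamide against abiraterone, to 2 with total count scaling, and for DMSO day 5 against day 1, to 3 with all 39 libraries in 1 fit. The cause was not tested.

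With total count scaling, TAP2 with enzalutamide moved to 0.039 (0.00051 without the filter on low counts), TAPBP with talazoparib to -0.0059, TAPBP with abiraterone plus olaparib against abiraterone to -0.011, TAP1 with enzalutamide plus talazoparib against enzalutamide to -0.017 (-0.0033 with the replicate block), and TAPBP in DMSO day 5 against day 1 to 0.0080.

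With each library left out in turn, the number of members called ranged from 8 to 9 for abiraterone, 8 to 8 for enzalutamide, 5 to 7 for olaparib, 5 to 5 for talazoparib, 7 to 9 for abiraterone plus olaparib and 8 to 9 for enzalutamide plus talazoparib. For the departures it ranged from 1 to 4 (abiraterone plus olaparib) and 4 to 6 (enzalutamide plus talazoparib). It ranged from 2 to 3 and 1 to 3 for the combinations against their hormonal drug, 1 to 2 for enzalutamide against abiraterone and 0 to 1 for talazoparib against olaparib. In the time course it ranged from 4 to 5 and 6 to 7 at day 1 (1 and 5 µM), 7 to 8 and 9 to 9 at day 5, 8 to 8 between doses, 3 to 4 and 6 to 7 between days, 2 to 5 for DMSO and 1 to 2 between experiments.

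The log2 differences of uncalled members that crossed 0 in such fits ranged as follows. NLRC5 ranged from -0.038 to 0.34 with talazoparib, -0.37 to 0.0092 for the departure of enzalutamide plus talazoparib, -0.098 to 0.027 for that combination against enzalutamide, -0.16 to 0.27 and -0.16 to 0.46 with 1 µM olaparib at day 1 and day 5, and -0.21 to 0.41 for the difference of those. Talazoparib against olaparib gave -0.023 to 0.0023 for B2M, -0.040 to 0.11 for HLA-B and -0.0082 to 0.11 for HLA-F. Between experiments the ranges were -0.12 to 0.014 for HLA-B, -0.054 to 0.0083 for HLA-C and -0.14 to 0.026 for TAP1. HLA-E ranged from -0.00091 to 0.14 with abiraterone plus olaparib and -0.037 to 0.010 against abiraterone, where TAPBP ranged from -0.041 to 0.053. HLA-F ranged from -0.17 to 0.012 for DMSO between days and -0.13 to 0.053 with 1 µM olaparib at day 1. TAP1 ranged from -0.045 to 0.041 for enzalutamide plus talazoparib against enzalutamide, and TAP2 from -0.048 to 0.028 with enzalutamide.

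Deviations of libraries with the same replicate number correlated between -0.069 and 0.064 in the panel and between -0.13 and 0.12 in the time course, so the numbers did not pair the samples. The replicate block changed 1 of 21 counts, to 4 from 5 for enzalutamide plus talazoparib against enzalutamide. NLRC5, at 22 to 25 counts in DMSO panel libraries, had the widest intervals, and small changes in it were not detectable at this depth.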
